A study of Oryza sativa with 18 samples.

Results

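Among 27233 coding-table genes that reached at least 10 counts in at least 3 of 18 young panicle libraries of the rice line WXS, 200 were followed here because their level was highest at the P3 stage, meiosis of the pollen mother cells, in sterile and in fertile plants alike. The members were chosen on the measured values. Counts were scaled to the library's total (CPM, counts per 1000000), the 3 libraries of a group were averaged, and a score was computed in each condition as log2 of the P3 mean plus 1 CPM over the larger of the P2 and P4 means plus 1 CPM. Genes were ranked by the smaller of their 2 scores and the first 200 were kept, which is 0.734% of the genes ranked. The rise at P3 is therefore a description of how the members were picked, and no test of it is given.

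In the rice anther, pollen mother cells pass through meiosis and give haploid microspores, while the tapetum, the innermost layer of the anther wall, feeds them and later breaks down. In grass anthers some transcripts are most abundant around meiosis. Among them are some genes of chromosome pairing and recombination, and some long non-coding precursors that are cut into phased small RNAs. In photoperiod- and thermo-sensitive genic male sterile (PTGMS) rice, day length and temperature during panicle development decide whether pollen forms. The question addressed was how a set of genes with a shared peak at P3 behaves when the same line is sterile or fertile.

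All plants were WXS, a single PTGMS line. WXS (S) plants grew in the field, with daily mean temperatures above 24 °C and days longer than 12 h, and formed no pollen. WXS (F) plants were moved from the same field to an incubator at a panicle length of about 1 cm and kept for 3-4 weeks at about 21 °C with 12 h of light, and had normal anthers. Panicles were taken at pollen mother cell formation (P2), meiosis (P3) and microspore formation (P4), giving the groups SP2, SP3, SP4, FP2, FP3 and FP4 with 3 libraries each. Day length, temperature and growth in a field or an incubator changed together and cannot be told apart. Whether a library came from 1 plant or from a pool is not given in the sources used here, so P values measure the spread between these libraries. The tissue is a whole young panicle, in which fewer cells of a type and less RNA per cell cannot be told apart.

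The libraries held 30577833 to 52222861 counts on the coding table. The 200 members took 0.794% to 1.03% of the counts in the SP3 libraries, 0.772% to 0.852% in the FP3 libraries, and 0.357% to 0.595% in the other 12. Members that were low at P2 and P4 rest on few counts there: the mean was below 1 CPM for 66 members in SP2, 67 in FP2, 32 in SP4 against 65 in FP4, against 6 in SP3 against 18 in FP3. Within groups, no library differed from another by less than sampling noise. The library SP3-2 was the lowest of its group for 96 members (48.0%), against 33.7% of all genes ranked, so that values of SP3 with and without it are given through the individual libraries.

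The peak at P3 was modest for most members. The smaller score was at least 1, a doubling on the CPM plus 1 scale, in 26 members, between 0.5 and 1 in 69, and below 0.5 in 105. Its median was 0.49, a ratio of 1.40, and it ran from 0.36 to 1.76. All 3 P3 libraries lay above all 6 P2 and P4 libraries for 128 members in WXS (S), for 151 in WXS (F) and for 118 in both, while 39 members had no such separation in either condition. The score was larger in WXS (S) for 99 members and in WXS (F) for 101. At the end of the ranking the values were continuous. The last 3 members, LOC_Os01g60920, LOC_Os08g07330 and LOC_Os05g08420, had smaller scores of 0.3632, 0.3631 and 0.3630, and the first 3 genes outside, LOC_Os09g24290, LOC_Os04g53470 and LOC_Os11g03300, had 0.3626, 0.3621 and 0.3614.

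**Figure D1:**
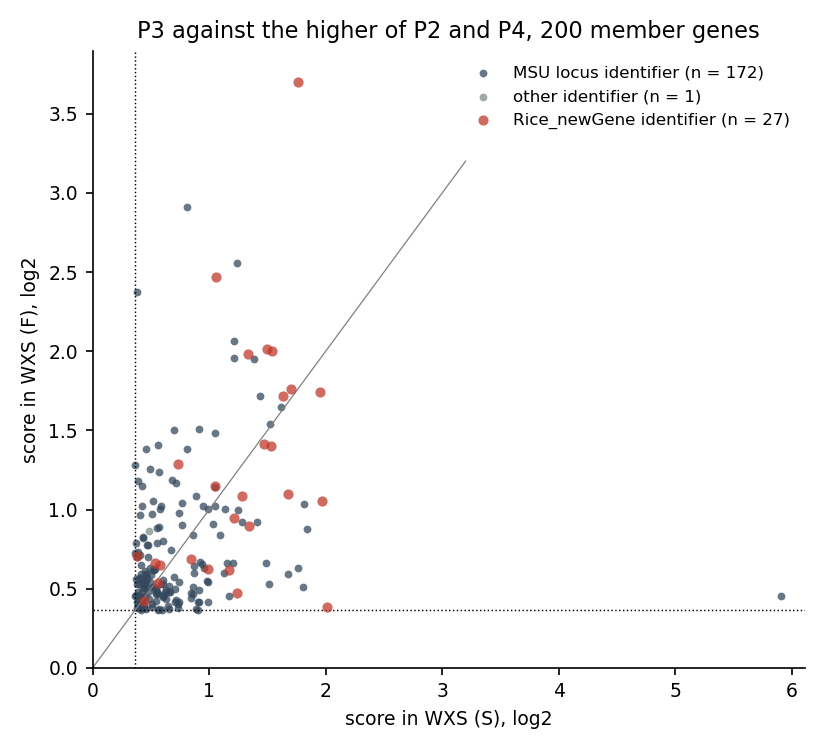
Score of each of the 200 members in WXS (S), x axis, and in WXS (F), y axis, both log2 of P3 over the higher of P2 and P4 after adding 1 CPM. Dotted lines mark the lowest smaller score of 0.36 and the grey line equal scores, with most points near the dotted corner, Rice_newGene_18837 at the top (1.76 and 3.70), and LOC_Os09g08890 far to the right at 5.91 in WXS (S).

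The files give no product names, and gene names are printed only where a source pairs them with an identifier, which holds for a single member below. What the identifiers do show is whether a gene was in the rice annotation (LOC_Os) or was assembled from these reads (Rice_newGene). Of the 200 members, 172 were LOC_Os loci, 27 were Rice_newGene models and 1 was ChrSy.fgenesh.gene.84. The new models were 13.5% of the members and 6.33% of the genes ranked, and they stood at the top: 14 of the 26 members with a smaller score of at least 1, and 8 of the first 12. The split by identifier was made after the members had been seen. The 2 kinds also had different profiles. The median over the 27 new models was 0.134 CPM in SP2, 11.7 in SP3 and 2.92 in SP4, and 0.173 in FP2, 1.62 in FP3 and 0.0208 in FP4. The median over the 172 LOC_Os members was 5.6, 13.8 and 6.34 CPM in SP2, SP3 and SP4, and 5.28, 10.5 and 6.18 CPM in FP2, FP3 and FP4. The median LOC_Os member thus had a base level at P2 and P4, and most new models were near 0 outside P3, with SP4 as the exception. A low level was not limited to new models. Of the 66 members with a mean below 1 CPM in SP2, 23 were new models. The LOC_Os member LOC_Os12g35430 had means of 0.182 CPM in SP2, 0.268 in FP2 and 0.0932 in FP4.

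**Figure D2:**
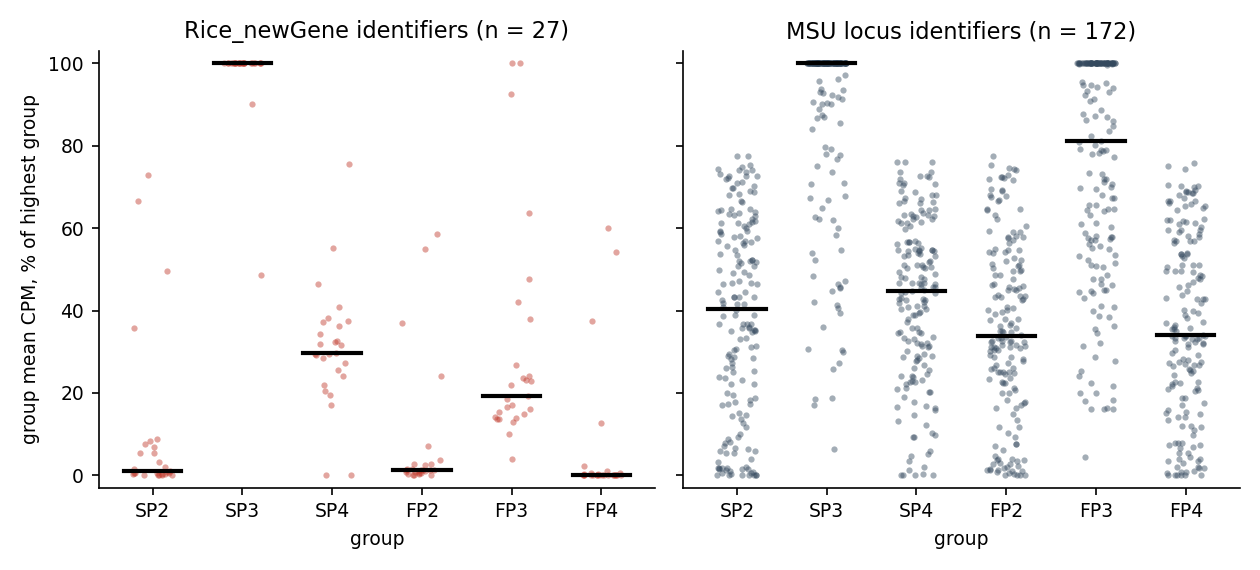
Group mean CPM of each member as a percentage of its highest group, for the 27 Rice_newGene members (left) and the 172 LOC_Os members (right), with medians as black bars. The median Rice_newGene member stood at 19.3% of its highest group in FP3, 29.7% in SP4 and 0.117% in FP4, and the median LOC_Os member at 81.0%, 44.8% and 34.0%.

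Counted by new model, the order of P2 and P4 was opposite in the 2 conditions, but in WXS (F) it rests on very low levels. P4 was above P2 for 24 of the 27 in WXS (S), and P2 was above P4 for 21 of the 27 in WXS (F). The mean was below 1 CPM for 24 of the 27 in FP2 and for 24 in FP4, with medians of 0.173 and 0.0208 CPM. Their summed level was 415, 287 and 411 CPM in the SP3 libraries and 89.7, 105 and 91.4 CPM in the FP3 libraries. In the SP4 libraries the sum was 115 to 131 CPM and in the FP4 libraries 15.5 to 19.5 CPM. In the P2 libraries it was 16.4 to 46.2 CPM in WXS (S) and 12.9 to 26.4 CPM in WXS (F), where the conditions overlap. The sums in FP2 and FP4 overlap as well, so the sum shows no order of P2 and P4 in WXS (F). Among members as a whole P4 was above P2 for 117 in WXS (S) and for 94 in WXS (F).

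The stage name was checked against lists of loci for panicle and anther cell types. The assignment of loci to these lists comes from general knowledge and could not be checked in the files, so only counts and sums are given. Of 29 loci for meiotic entry, chromosome axis, synapsis and recombination, 1 was a member, LOC_Os09g32930. The score of these loci was above 0 for 13 in WXS (S) and for 2 in WXS (F), and their sum was 544 to 568, 566 to 593 and 424 to 463 CPM in SP2, SP3 and SP4. In FP2, FP3 and FP4 it was 628 to 649, 388 to 415 and 247 to 279 CPM, so that it was highest at P2 in WXS (F). The single locus listed as a germline argonaute had 244 to 279 CPM in SP3 and 109 to 115 in FP3 and was no member. No member was among 9 tapetum regulators, 19 tapetum and pollen wall products, 3 late pollen MADS, 6 floral organ, 5 green tissue or 3 mitotic loci. Tapetum and pollen wall products summed to 96.8 to 104 CPM in SP2, 2998 to 3710 in SP4, 153 to 164 in FP2 and 3083 to 3444 in FP4. Their sums at P4 overlap although single loci differed, with 10 of the 19 higher in WXS (F) and 4 lower by the edgeR calls described below. Green tissue loci summed to 71.1 to 89.1 CPM in SP2, 438 to 541 in SP4, 95.8 to 98.7 in FP2 and 826 to 996 in FP4. The 9 tapetum regulators summed to 370 to 424 CPM in SP3 and 216 to 233 in FP3, and the 3 mitotic loci to 155 to 161 and 69.2 to 73.4. The part of these shifts in the members' levels was not tested. Most listed meiotic loci were thus not members, with 1 member among 29, where 0.734% of all genes ranked were members. A list of 29 loci could not cover most of the 200 members, so it does not show what the other members are.

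**Figure D3:**
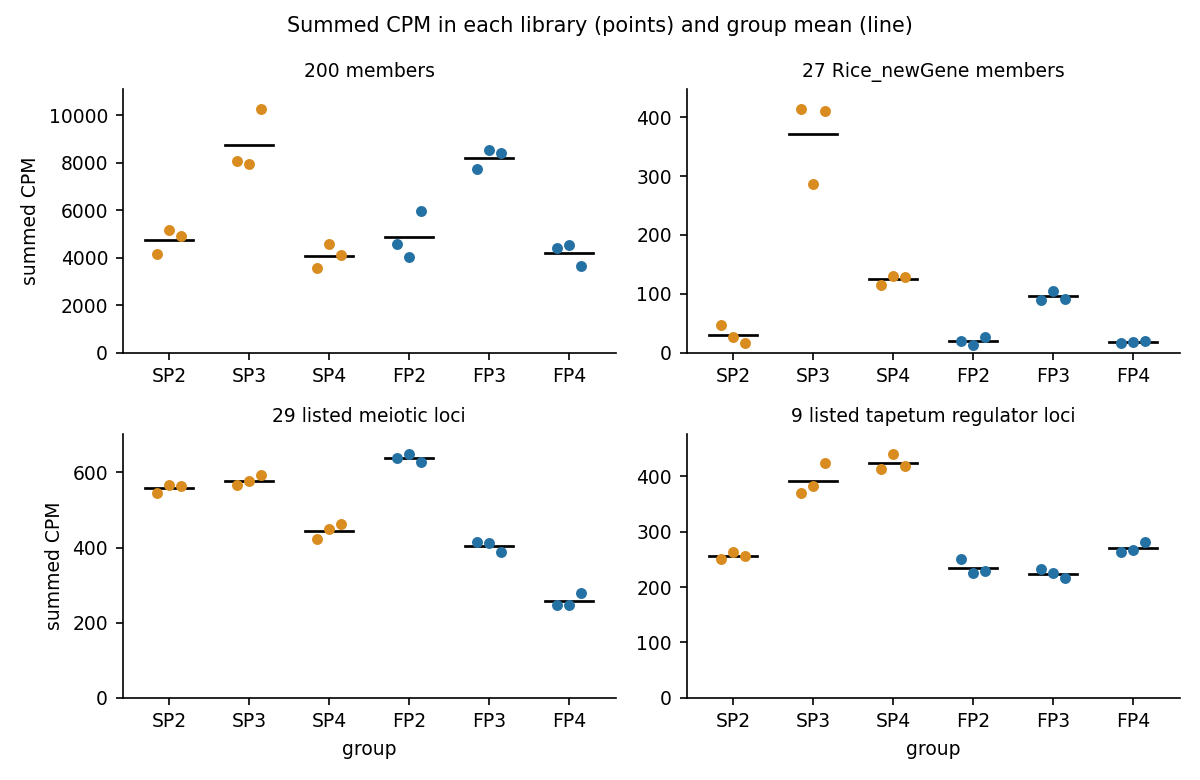
Summed CPM in each library (points, with the group mean as a line) of the 200 members, the 27 Rice_newGene members, 29 listed meiotic loci and 9 listed tapetum regulator loci, with WXS (S) in orange and WXS (F) in blue. The new models reach 415 CPM in SP3 and 105 CPM in FP3, and the meiotic loci are highest in FP2 among the WXS (F) groups.

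The one meiotic-list member was lower in WXS (F) at P3 and P4, as was the sum of the list. At P2 the sum was higher in WXS (F) and this member was not, and within WXS (F) the sum was highest at P2. LOC_Os09g32930 had 4.61, 4.23 and 4.88 CPM in SP2, 22.2, 22.1 and 17.5 in SP3, and 14.4, 16.3 and 14.8 in SP4. In WXS (F) it had 4.06, 3.39 and 3.39 CPM in FP2, 9.96, 8.21 and 9.48 in FP3, and 2.92, 3.17 and 3.17 in FP4. It kept much of its level at P4 in WXS (S) and returned to below its P2 level in WXS (F). It was lower in WXS (F) at P3 by a log2 fold change of -1.13 (SE 0.17, edgeR adjusted P = 0.00289) and at P4 by -2.19 (SE 0.10, edgeR adjusted P = 8.44e-06).

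The highest-ranked member, Rice_newGene_18837, had 0.142, 0.184 and 0.0574 CPM in SP2, 96.2, 58.0 and 90.0 in SP3, and 19.5, 25.5 and 24.7 in SP4. In WXS (F) it had 0.522, 0.582 and 0.651 CPM in FP2, 20.3, 20.4 and 17.9 in FP3, and 0.115, 0.104 and 0 in FP4. The conditions did not overlap at any stage, and their order reversed after P2. It was higher in WXS (F) at P2 by 2.05 (SE 0.48, edgeR adjusted P = 0.0160). This rests on counts of at most 29 per library, and the gene passed the filter at P2 through FP2 alone and at P4 through SP4 alone. It was lower in WXS (F) at P3 by -2.03 (SE 0.21, edgeR adjusted P = 6.41e-04) and at P4 by -8.13 (SE 0.50, edgeR adjusted P = 3.55e-05), all on the log2 scale. With the filter on 18 libraries the edgeR adjusted P was 0.0245 at P2 and 4.53e-05 at P4. The call at P2 was lost with that filter when an FP2 library was left out (log2 fold changes 2.12, 2.05 and 1.95 without FP2-1, FP2-2 and FP2-3).

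Rice_newGene_18793 had no count in SP2 or FP4. It had 24.6, 12.2 and 22.5 CPM in SP3, 3.05, 5.13 and 4.90 in SP4, 0.095, 0.529 and 0.314 in FP2, and 3.55, 2.84 and 3.76 in FP3. It was lower in FP3 than in SP3 by -2.52 on the log2 scale (SE 0.31, edgeR adjusted P = 0.00114) and at least 65.9-fold lower in FP4 than in SP4, taking 3 counts per library as the limit of a count of 0. Rice_newGene_11332 had 24.4, 11.5 and 24.1 CPM in SP3 against 3.16, 3.51 and 3.07 in FP3, 4.96 to 6.04 in SP4, and 0 to 0.291 in the 9 libraries of the other groups. It thus shared the shape of the 2 models above, and was lower in FP3 by -2.60 (SE 0.31, edgeR adjusted P = 0.00111).

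Rice_newGene_15459 had 30.3, 13.7 and 21.6 CPM in SP3 against 5.32, 0.377 and 3.67 in FP3, with 4.91 to 8.26 in SP4 and no count in FP4. The library FP3-2 lay far below the others of its group. It was lower in FP3 by -2.77 (SE 0.83, edgeR adjusted P = 0.0354), a call lost without SP3-1 (-2.40), SP3-3 (-2.89) or FP3-3 (-2.87), and at least 96.4-fold lower in FP4 than in SP4. Rice_newGene_38300 had 13.3, 10.3 and 17.7 CPM in SP3, 4.10, 3.44 and 3.50 in FP3, 3.89 to 4.38 in SP4 and none in FP4, at least 61.8-fold lower. Rice_newGene_11330 had 19.4, 14.9 and 18 CPM in SP3 against 3.19, 3.44 and 3.07 in FP3, with 4.74 to 6.29 in SP4 and 5 counts in all in FP4. Its spread within P3 was small beside the difference of -2.40 (SE 0.16, edgeR adjusted P = 1.31e-04). Rice_newGene_18443 had 19.0, 9.52 and 15.8 CPM in SP3, 2.09, 2.24 and 2.26 in FP3 and 3.35 to 5.86 in SP4. Rice_newGene_502 had no count in SP2, 14.2, 8.47 and 15.3 CPM in SP3, 1.68, 1.75 and 1.79 in FP3, 2.83 to 4.33 in SP4 and 2 counts in all in FP4. Both were lower in FP3, by -2.73 (SE 0.29, edgeR adjusted P = 6.90e-04) and by -2.83 (SE 0.26, edgeR adjusted P = 3.80e-04). The 8 new models of the first 12 members were thus all lower in FP3 than in SP3, and SP3-2 was the lowest SP3 library for each of them.

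The 4 LOC_Os genes of the first 12 followed this shape in 3 cases. LOC_Os11g38860 had 0.142, 0 and 0.0574 CPM in SP2, 32.8, 19.2 and 33.5 in SP3 and 7.11, 9.70 and 9.06 in SP4, and 0.522, 0.265 and 0.517 in FP2, 4.46, 5.17 and 6.10 in FP3 and 1.2, 0.854 and 0.937 in FP4. It was lower in WXS (F) at P3 by -2.42 (SE 0.26, edgeR adjusted P = 6.56e-04) and at P4 by -3.0 (SE 0.19, edgeR adjusted P = 4.14e-05). LOC_Os12g35430 had 12.0, 11.2 and 11 CPM in SP3 against 2.96, 3.35 and 3.19 in FP3, with 3.29 to 3.84 in SP4 and 0 to 0.146 in FP4. LOC_Os04g38840 had 16.4, 14.1 and 21.3 CPM in SP3 against 4.40, 4.39 and 3.69 in FP3, with 5.09 to 6.85 in SP4 and 0.146 to 0.460 in FP4. Both had non-overlapping P3 groups, with differences of -1.82 (SE 0.15, edgeR adjusted P = 2.62e-04) and -2.01 (SE 0.18, edgeR adjusted P = 3.26e-04). LOC_Os07g13234 went the other way, with 5.68, 1.41 and 5.24 CPM in SP3 against 7.61, 7.08 and 11.5 in FP3. Its libraries differed widely within groups, with 0 to 0.668 CPM in SP4 and 0.299 to 3.44 in FP4, and the difference at P3 of 1.10 (SE 0.51, edgeR adjusted P = 0.128) was not called.

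**Figure D4:**
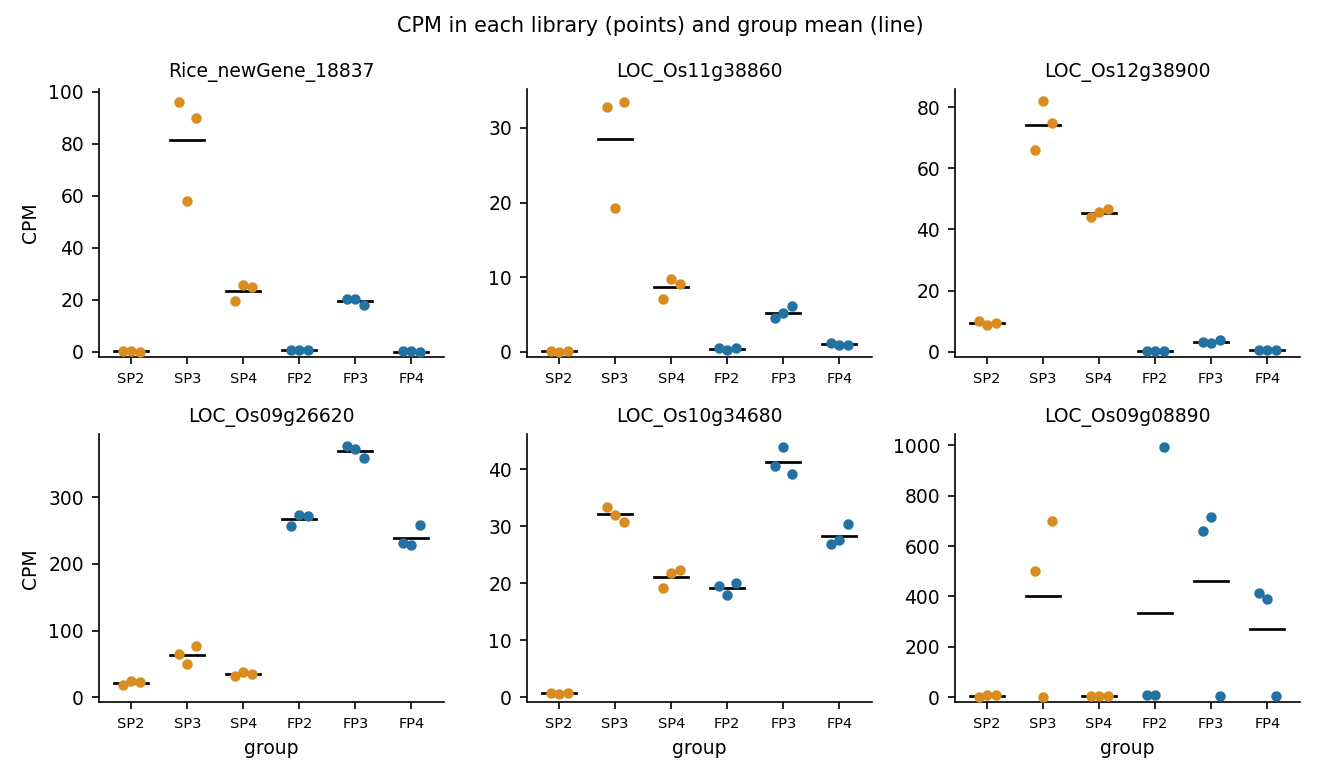
CPM of 6 members in each of the 18 libraries (points, orange WXS (S), blue WXS (F)) with group means as lines, each panel on its own linear axis. Rice_newGene_18837 and LOC_Os11g38860 are highest in SP3, LOC_Os12g38900 is nearly absent in WXS (F), and LOC_Os09g26620 is higher in WXS (F) throughout, while LOC_Os10g34680 differs mainly at P2 and LOC_Os09g08890 has libraries near 0 beside libraries with far higher levels in the same group.

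The authors' FPKM scale allows levels of different genes to be compared per length. On it, members were a little above the rest at P3 (median 4.18 FPKM over the P3 libraries against 2.75 over all genes ranked). The ranking used the P3 level with 1 CPM added, so this describes how the members were picked. The highest member was LOC_Os11g10590 at 399 FPKM. It had 87.0, 115 and 112 CPM in SP2, 178, 135 and 206 in SP3, 37.8, 44.9 and 42.8 in SP4, and 67.0, 69.2 and 72.1 in FP2, 150, 158 and 164 in FP3 and 10.3, 13.7 and 13.7 in FP4. Its P3 groups overlapped, and it was lower in FP4 by -1.62 (SE 0.12, edgeR adjusted P = 7.00e-05). LOC_Os01g46600 had almost the same level at P3 in both conditions, 93.3, 95.0 and 91.1 CPM in SP3 against 87.2, 89.8 and 89.8 in FP3. It stood at 49.1, 57.4 and 51.3 CPM in SP2 against 11.4, 9.55 and 11.9 in FP2, and at 19.4, 24.6 and 24.9 in SP4 against 6.60, 6.60 and 7.52 in FP4. The peak was therefore sharper in WXS (F), with a score of 2.91 against 0.81, and the difference between conditions was -2.40 at P2 (SE 0.12, edgeR adjusted P = 5.87e-05), -0.04 at P3 (SE 0.08, edgeR adjusted P = 0.746) and -1.62 at P4 (SE 0.09, edgeR adjusted P = 2.82e-05).

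LOC_Os07g40220 had 380, 405 and 349 CPM in SP2 against 157, 153 and 166 in FP2, and 495, 479 and 491 in SP3 against 277, 260 and 286 in FP3. It was lower in WXS (F) at every stage without overlap, and passed the fold threshold at P2 with -1.39 (SE 0.08, edgeR adjusted P = 6.74e-05). LOC_Os03g14050 had 653, 529 and 824 CPM in SP3 against 884, 889 and 955 in FP3, a difference of 0.48 (SE 0.15, edgeR adjusted P = 0.0424) that is below the fold threshold. LOC_Os09g08890 and LOC_Os03g08500, the other two of the 6 highest, had libraries that disagreed within a group. LOC_Os09g08890 had 502, 0 and 701 CPM in SP3, 659, 718 and 5.17 in FP3, 6.81, 6.80 and 995 in FP2 and 415, 389 and 4.22 in FP4. LOC_Os03g08500 had 489, 1.21 and 692 CPM in SP3, 18.5, 357 and 328 in SP4, 0.598, 226 and 235 in FP4, and 425, 432 and 431 in FP3. In such genes the group mean does not stand for its libraries.

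Members of this kind were counted by a rule chosen after the values were seen: a group with a library of at least 5 CPM and at least 10 times the lowest library. It held for 22 members (11%), 2 of them new models, and for 671 of the genes ranked (2.46%), and in 17 members it concerned SP3 or FP3. LOC_Os05g08420, the last member by rank, had 7.17, 148 and 278 CPM in SP3 against 7.04, 177 and 0.312 in FP4, and LOC_Os02g45040 had 0.156, 6.18 and 7.85 in SP3 against 0.454, 0.422 and 20.3 in FP3. Of these 22 members, 1 was called between conditions at P2, 1 at P3 and 3 at P4. How the counting assigned reads shared by transcripts or gene copies is not given in the sources used here, and its part in this spread was not tested.

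Properties that the ranking did not use were compared with all genes ranked. The median deposited length was 1893.5 bases for members and 2609 for genes ranked, and 2483 for new-model members against 1964 for new models ranked. LOC_Os members lay on all 12 chromosomes by their locus numbers, from 4.65% of them on chromosomes 8 and 12 to 15.7% on chromosome 1, where 14% of ranked LOC_Os genes lie. Within 10 loci of another member, counted in the order of loci along a chromosome, were 25 members, in 12 runs. The share over all genes ranked was not computed for this count. The only run of 3 was LOC_Os02g44990, LOC_Os02g45000 and LOC_Os02g45040 on chromosome 2. LOC_Os02g44990 had 59.4, 70.4 and 91.2 CPM in SP3 against 51.8, 52.0 and 3.50 in FP3, and LOC_Os02g45000 had 14.2, 12.6 and 17.5 in SP3 against 10.4, 9.12 and 9.10 in FP3, with no count in SP2-1 and FP4-3. All 3 neighbours thus had at least 1 library far from the others of its group.

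Some pairs of neighbours behaved alike, and those given here were picked after their values were seen, with leave-one-out values not computed for the single genes. LOC_Os06g37690, the locus next to LOC_Os06g37680, had 3.46, 4.09 and 4.01 CPM in SP3 against 0.454, 0.910 and 0.524 in FP3 and was at or below 0.0712 in the 6 libraries of P2. Both were lower at P3, LOC_Os06g37690 by -2.58 on the log2 scale (SE 0.31, edgeR adjusted P = 0.00108). On chromosome 10, LOC_Os10g22780 had 2.85, 3.79 and 3.21 CPM in SP3 against 1.38, 1.09 and 1.10 in FP3, and LOC_Os10g22820 had 4.28, 3.53 and 3.07 in SP3 against 0.986, 0.710 and 0.667 in FP3. Neither had any count in FP4, while SP4 held 1.21 to 1.77 CPM of LOC_Os10g22780 and 1.06 to 1.28 CPM of LOC_Os10g22820.

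The coding table and the lncRNA table overlap. For 10 of the 27 new-model members, among them Rice_newGene_18837, Rice_newGene_18793, Rice_newGene_11332 and Rice_newGene_502, an lncRNA has the same count in each of the 18 libraries, and this holds for 416 of the genes ranked, all of them new models. These members are thus carried as coding genes and as lncRNAs. When the scores were computed for the 1861 lncRNAs that passed the same filter, per 1000000 coding counts, 32 (1.72%) reached the members' lowest score, against 0.734% of coding-table genes. The share was 1.57% among new models ranked, close to that of the lncRNAs, and 0.676% among LOC_Os genes ranked. After the 10 lncRNAs with a member's counts in all 18 libraries were set aside, 22 lncRNAs remained. Of these, 21 were higher in SP3 than in FP3 on average, 12 of them without overlap of libraries, and 0 had all FP3 libraries above all SP3 libraries. Over all 1861 lncRNAs the shares were 63.1% higher in SP3, 28.7% without overlap, and 9.3% with all FP3 libraries above. The 22 are not all separate from the members. MSTRG.30476.1, with 30.3, 13.7 and 21.6 per 1000000, had the SP3 values of Rice_newGene_15459 and differed from it in other libraries. How many others overlap with a member in part was not tested. The highest-scoring of the 32, MSTRG.21365.3, had 877, 4413 and 29.3 counts per 1000000 in SP3 against 4737, 30.9 and 304 in FP3, so that its score rests on libraries that disagree.

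WXS (F) and WXS (S) were compared within each stage by edgeR, with a call at a Benjamini-Hochberg adjusted P below 0.05 together with a log2 fold change of 1 or more in either direction. Positive values are higher in WXS (F). At P3, 199 of the 200 members were tested. Lower in WXS (F) were 50 (25.1%), against 6.65% of all 24452 genes tested, and higher were 19 (9.55%), against 14.9%. The median log2 fold change was -0.42 over the members and 0.04 over all genes tested. The 27 new models held 20 of the 50 lower calls and 1 of the 19 higher calls. Among all 1376 new models tested at P3, 28.7% were lower and 8.72% higher. The 6 new models without a call at P3 were Rice_newGene_30233, Rice_newGene_6672, Rice_newGene_11398, Rice_newGene_34258, Rice_newGene_11425 and Rice_newGene_11417. Rice_newGene_30233 had 4.73, 6.67 and 0 CPM in SP3 and 0.0789, 4.24 and 0 in FP3, and Rice_newGene_11417 had 5.57, 40.9 and 12.6 in SP3, so that their libraries disagreed. Rice_newGene_11398 had a base level like that of many LOC_Os members, with 8.76, 11.5 and 6.24 CPM in SP2, 13.2, 10.8 and 15.7 in SP3 and 7.81, 8.65 and 8.79 in FP3. The one new model called higher, Rice_newGene_3123, was low throughout, with 0.996, 0.654 and 0.888 CPM in SP3 against 1.85, 2.0 and 1.38 in FP3. The 171 LOC_Os members tested had 30 lower and 18 higher calls, beside 6.65% and 14.9% of all genes tested, and a median of -0.27. Shares over LOC_Os genes alone were not computed. Without overlap of libraries, 88 members were lower in FP3 than in SP3, against 24.8% of all genes ranked, and 32 were higher, against 28.0%.

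Members with the smallest P among the lower calls at P3 included 3 LOC_Os genes beside Rice_newGene_11330. LOC_Os12g38900 had 66.0, 81.9 and 74.9 CPM in SP3 against 3.25, 2.86 and 3.81 in FP3, and 44.0, 45.9 and 46.7 in SP4 against 0.552, 0.417 and 0.603 in FP4. At P2 it had 10.1, 8.74 and 9.34 CPM in WXS (S) and 0.237, 0.106 and 0.404 in WXS (F). Every WXS (S) library was thus above every WXS (F) library of any stage, and the differences were -5.34 (SE 0.43, edgeR adjusted P = 2.68e-04), -4.45 (SE 0.15, edgeR adjusted P = 1.41e-05) and -6.33 (SE 0.12, edgeR adjusted P = 5.79e-07) at P2, P3 and P4. LOC_Os06g37680 had 102, 85.9 and 82.2 CPM in SP3 against 18.2, 16.9 and 18.8 in FP3, from 0.45 to 1.51 at P2 in both conditions. It was lower by -2.30 at P3 (SE 0.15, edgeR adjusted P = 1.04e-04) and by -2.91 at P4 (SE 0.13, edgeR adjusted P = 1.05e-05), where SP4 had 47.2, 55.9 and 50.1 CPM and FP4 4.99, 6.48 and 7.41. LOC_Os04g51440 had 13.6, 13.6 and 13.2 CPM in SP3 against 2.03, 1.95 and 2.50 in FP3, a difference of -2.60 (SE 0.17, edgeR adjusted P = 1.01e-04).

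Of the 19 higher calls at P3, 18 were LOC_Os genes. LOC_Os09g26620, annotated in the study's supplement by similarity to an auxin-repressed protein of strawberry, had 18.5, 23.6 and 23.4 CPM in SP2, 64.5, 49.1 and 76.5 in SP3 and 31.2, 37.5 and 34.8 in SP4. In WXS (F) it had 256, 273 and 272 CPM in FP2, 377, 372 and 359 in FP3 and 231, 228 and 259 in FP4. Every WXS (F) library lay above every WXS (S) library, and the difference was 3.47 (SE 0.12, edgeR adjusted P = 1.86e-05), 2.58 (SE 0.16, edgeR adjusted P = 9.03e-05) and 2.90 (SE 0.05, edgeR adjusted P = 3.57e-07) at P2, P3 and P4. LOC_Os06g02490 had 35.4, 27.3 and 31.8 CPM in SP3 against 118, 126 and 123 in FP3, and 11.6, 10.3 and 13.7 in SP4 against 77.2, 81.0 and 88.0 in FP4. The difference was 1.98 at P3 (SE 0.13, edgeR adjusted P = 1.18e-04) and 2.89 at P4 (SE 0.12, edgeR adjusted P = 7.67e-06). LOC_Os01g65169 was close to absent in WXS (S), with 1.04, 0.883 and 1.21 CPM in SP3 against 10.2, 20.4 and 18.1 in FP3 (3.98, SE 0.30, edgeR adjusted P = 1.84e-04). LOC_Os01g42190 had 11.8, 13.2 and 15.7 CPM in SP3 against 44.6, 43.5 and 45.8 in FP3 (1.76, SE 0.11, edgeR adjusted P = 7.81e-05).

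**Figure D5:**
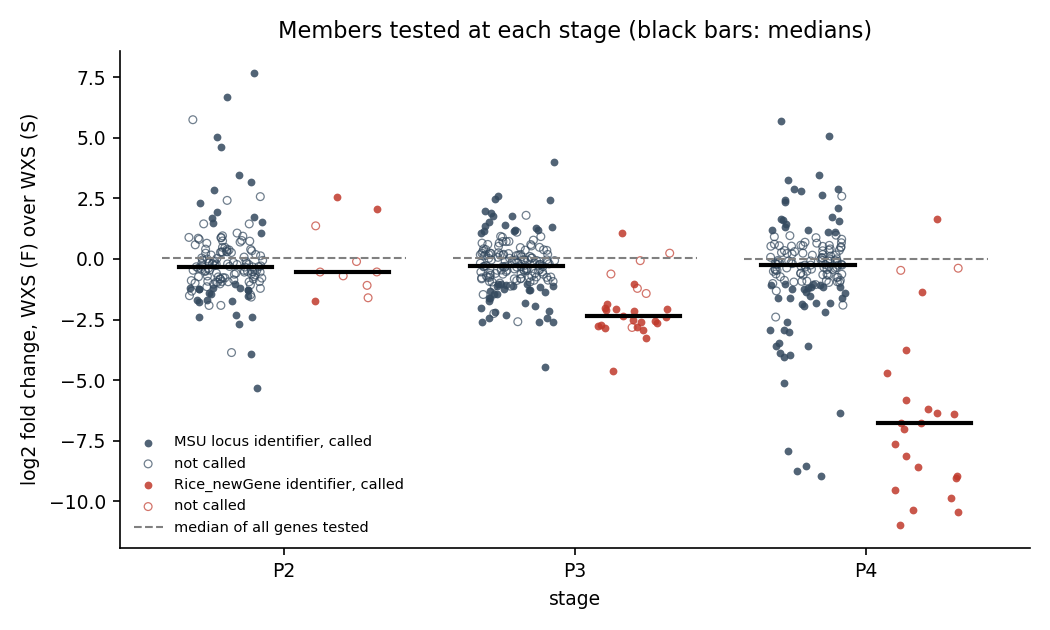
log2 fold change of WXS (F) over WXS (S) for the members tested at P2, P3 and P4, with filled points for called members, black bars for the medians of LOC_Os and Rice_newGene members, and a dashed line for the median of all genes tested. The Rice_newGene median falls from -0.54 at P2, where 10 were tested, to -2.35 at P3 and -6.77 at P4, where 18 of 23 passed the filter through SP4 alone, the LOC_Os medians stay between -0.32 and -0.25, and fitted values of members with no count in FP4 depend on the prior count.

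At P4, 181 members were tested, of which 57 were lower in WXS (F), against 6.78% of 24724 genes tested, and 22 were higher, against 15.7%. A filter on the 6 libraries lets a member pass through SP4 alone, and 26 members, 18 of them new models, passed in that way. All 26 were called lower, so the counts with this filter are given as a description. With the filter on all 18 libraries 197 members were tested, of which 60 (30.5%) were lower, against 6.51% of genes tested, and 22 (11.2%) higher, against 14.7%. The median was -0.42 over members and 0.00 over all genes tested under both filters. With the filter on all 18 libraries 25 new-model members were tested, of which 20 were lower and 1 higher, against 9.28% and 7.66% of all 1605 new models tested. Both directions together made 79 calls, against 22.5% of all genes tested. This number fell to 51, 53 and 52 without SP4-1, SP4-2 and SP4-3, and the lower calls fell from 57 to 30, 32 and 29, since with 2 SP4 libraries a gene present in SP4 alone cannot reach the count minimum in 3 libraries, and with the filter on 18 libraries, an alternative added after seeing the data, it lay between 76 and 82 whichever library was left out.

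Rice_newGene_15456 was among the clearest of these, with 7.98, 9.70 and 9.40 CPM in SP4 against 0.115, 0.0833 and 0.0893 in FP4 (-6.41, SE 0.19, edgeR adjusted P = 2.13e-06), though it too passed the filter through SP4 alone (edgeR adjusted P = 2.3e-06 with the filter on 18 libraries). Its P3 values were 26.0, 17.1 and 29.8 CPM in WXS (S) and 5.68, 5.73 and 5.46 in WXS (F), and its number lies beside those of the members Rice_newGene_15457 and Rice_newGene_15459. Rice_newGene_15457 had the same shape at a lower level, with 7.46, 4.74 and 7.76 CPM in SP3 against 1.03, 1.46 and 1.36 in FP3. Whether the 3 models are pieces of a single transcript was not tested. LOC_Os09g35890, the member with the highest mean in SP3, had 755, 686 and 783 CPM there and 323, 335 and 330 in FP3. At P4 it had 382, 418 and 411 in SP4 against 157, 159 and 156 in FP4. Its difference was about the same at each stage, -1.28 at P2 (SE 0.10, edgeR adjusted P = 2.30e-04), -1.14 at P3 (SE 0.09, edgeR adjusted P = 2.49e-04) and -1.25 at P4 (SE 0.04, edgeR adjusted P = 3.56e-06). LOC_Os09g32360 moved apart instead, from -1.19 at P2 (SE 0.19, edgeR adjusted P = 0.00419) to -3.60 at P4 (SE 0.16, edgeR adjusted P = 8.30e-06), with 11.2, 11.6 and 14.5 CPM in SP4 against 0.897, 0.979 and 0.960 in FP4. Higher in FP4 were LOC_Os01g53220, with 1.50, 1.62 and 1.36 CPM in SP4 against 14.1, 15.4 and 16.6 in FP4 (3.47, SE 0.12, edgeR adjusted P = 3.23e-06), and LOC_Os03g55540, with 15.5, 17.9 and 17.3 in SP4 against 47.8, 48.1 and 51.0 in FP4 (1.64, SE 0.05, edgeR adjusted P = 2.33e-06). Neither pair of groups overlapped.

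At P2, before the peak, the share of lower calls lay closer to that of all genes than at P3 or P4, though 40 members were not tested. The medians of LOC_Os members did not follow this order, with -0.32 at P2, -0.27 at P3 and -0.25 at P4. Of 160 tested, 16 were higher in WXS (F), against 10.3% of 23759 genes tested, and 23 (14.4%) were lower, against 7.76%. The median was -0.33 over members and 0.04 over all genes tested. Of the tested members 4 passed the filter through SP2 alone, of which 3 were called lower, and 5 through FP2 alone, of which 4 were called higher. With the filter on all 18 libraries 198 members were tested, of which 17 (8.59%) were higher and 25 (12.6%) lower. Of all 26826 genes tested with that filter, 2539 were higher and 1850 lower. With library totals in place of TMM factors the split was 23 higher and 21 lower, and the median of all genes moved to 0.18. Only 10 new models had enough counts to be tested at P2. LOC_Os10g34680 had 0.756, 0.572 and 0.785 CPM in SP2 against 19.6, 17.9 and 19.9 in FP2 (4.62, SE 0.17, edgeR adjusted P = 2.34e-05), while its P3 values, 33.4, 32 and 30.8 against 40.5, 44.0 and 39.1, differed by 0.39 (SE 0.11, edgeR adjusted P = 0.0260). It was thus present before P3 in WXS (F) and scarce in WXS (S). LOC_Os10g36180 had 1.82, 1.63 and 1.67 CPM in SP2 against 11.1, 8.33 and 8.29 in FP2 (2.29, SE 0.18, edgeR adjusted P = 2.31e-04) and was higher in WXS (F) at all 3 stages. LOC_Os03g25530 had 15.9, 17.7 and 16.6 CPM in SP2 against 3.06, 2.20 and 3.32 in FP2 (-2.69, SE 0.18, edgeR adjusted P = 1.50e-04), and LOC_Os11g01530 had 173, 159 and 163 in SP2 against 80.5, 75 and 77.1 in FP2 (-1.23, SE 0.06, edgeR adjusted P = 5.88e-05).

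Across stages, 43 members were lower in WXS (F) at P3 and at P4, against 2.16% of all genes ranked, and 20 of the 43 were new models. With the filter on 18 libraries the number was 44, against 2.38%. At all 3 stages 10 were lower, against 0.720%. Higher at P3 and P4 were 14, against 7.92%, and 9 at all 3 stages, against 4.06%. Rice_newGene_18837 and LOC_Os06g42280, the latter named after its values were seen, were higher at P2 and lower at P3 and P4. Both passed the filter at P2 through FP2 alone and at P4 through SP4 alone, and both were called in the same directions with the filter on 18 libraries, where 3 members in all had this order. LOC_Os06g42280 had no count in SP2, 22.9, 20.5 and 18.6 CPM in SP3 and 7.87, 8.24 and 8.49 in SP4, and 0.356, 0.265 and 0.270 in FP2, 7.28, 5.55 and 7.08 in FP3 and 1 library with counts, at 0.0446, in FP4. Its shape was thus that of Rice_newGene_18837 at a lower level. Rice_newGene_18813 was the only new model lower at all 3 stages, with 0.378, 0.612 and 0.383 CPM in SP2 against 0.119, 0.132 and 0.202 in FP2, and 6.86, 2.81 and 6.62 in SP3 against 0.572, 0.954 and 0.762 in FP3. It passed the filter at P2 through SP2 alone and at P4 through SP4 alone. With the filter on 18 libraries it was called lower at both (edgeR adjusted P = 0.0334 at P2 and 3.12e-04 at P4). No call at any stage was made for 97 members, against 64.6% of all genes ranked.

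The change of the difference between WXS (F) and WXS (S) from P2 to P4 was tested in a fit of all 18 libraries. It was negative for 41 of 200 members (20.5%), against 8.03% of 27233 genes, and positive for 19 (9.50%), against 7.34%. Both directions together made 60, against 15.4% of all genes. New models accounted for 18 of the 41 negative changes, against 6.26% of all new models. Among 172 LOC_Os members tested, 23 changes were negative and 18 positive, beside 8.03% and 7.34% of all genes. With library totals in place of TMM factors, which moved the median of all genes from -0.03 to -0.28, there were 45 negative and 11 positive changes. Positive changes included LOC_Os03g20680, which was lower in WXS (F) at P2, with 8.41, 9.41 and 10.2 CPM in SP2 against 6.32, 4.26 and 5.44 in FP2, and higher at P4, with 12.4, 13.1 and 11.1 in SP4 against 23.7, 23.2 and 27.3 in FP4. The change was 2.08 (SE 0.19, edgeR adjusted P = 1.02e-06). LOC_Os01g46760 had 89.5, 76.2 and 77.1 CPM in SP2, 51.7, 50 and 48.5 in FP2, 62.6, 77.2 and 76.2 in SP4 against 76.0, 76.5 and 88.6 in FP4, a change of 1.10 (SE 0.10, edgeR adjusted P = 1.19e-06) that fell below the fold threshold with library totals in place of TMM factors (0.85). The negative change with the smallest P was that of LOC_Os10g34680, -4.08 (SE 0.16, edgeR adjusted P = 2.20e-10).

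On the lists named above, 12 of 29 meiotic loci were called lower at P3 by the same edgeR calls, the member LOC_Os09g32930 included. Also lower were 4 of 9 tapetum regulators, 2 of 3 mitotic, 2 of 6 floral organ and 1 of 5 green tissue loci. The argonaute and the 1 late pollen MADS locus tested were lower as well. Higher were 12 of 19 tapetum and pollen wall products and 2 green tissue loci. Of all genes tested at P3, 6.65% were lower and 14.9% higher. At P2 the meiotic loci had 2 higher, against 10.3% of all genes tested, and at P4 9 lower, against 6.78%.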

How the data were processed

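The study measured RNA of 18 young panicle libraries after rRNA removal with a strand-specific kit. The processing notes name HISAT2 and StringTie 1.3.1, and the genome was MSU v7.0. The counting tool, its strand setting and the handling of reads with several positions are not given in the sources used here. The deposited coding and lncRNA counts are whole numbers without normalization, and the deposited FPKM are the authors' values per length and depth. The circRNA tables were not used. Members and lists were chosen with earlier results of these data known, and promoters, sequences and annotated groups were not analysed here.

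CPM use library totals. Genes were tested in R 4.3.3 if 3 or more of the 6 libraries (18 for the change from P2 to P4) held 10 counts or more. The fit was the quasi-likelihood fit and F test from edgeR 4.0.16, using TMM factors and no block, with Benjamini-Hochberg adjustment over all genes tested. The approximate standard error is the absolute fold change over the root of the F statistic. Limits of a count of 0 are 3 counts per library and cover counting error only. Alternatives were DESeq2 1.42.0, other scalings, filters and pseudocounts, a replicate block and each library left out. Fits were tested on simulated data. Python 3.11.15 and pandas 2.3.3 were used for other steps. Named members are the 12 with the highest smaller score, the 6 with the highest FPKM at P3, up to 4 per direction and stage (2 for the change) with the smallest P, members on a list or in a run of 3 neighbours, and those at the end of the ranking. Others were named after their values were seen.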

Additional observations from a re-analysis of the deposited data

Results flagged for a closer look

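For 60 of the 200 members the difference between WXS (F) and WXS (S) was not the same at P2 and at P4, against 15.4% of all genes (edgeR, 18 libraries, adjusted P below 0.05 with a log2 change of 1 or more in either direction). Among the named members the change from P2 to P4 was negative for Rice_newGene_18837 (-10.19), Rice_newGene_11332 (-7.80), Rice_newGene_18443 (-7.33), Rice_newGene_11330 (-5.83), LOC_Os11g38860 (-5.58), LOC_Os12g35430 (-5.49), Rice_newGene_15456 (-5.32), LOC_Os10g34680 (-4.08), LOC_Os09g32360 (-2.41), LOC_Os06g37680 (-2.38), LOC_Os04g38840 (-2.30), LOC_Os09g32930 (-1.70) and LOC_Os12g38900 (-1.0), all on the log2 scale. It was also negative for Rice_newGene_18793 (-17.19), Rice_newGene_38300 (-11.95), Rice_newGene_502 (-11.42) and Rice_newGene_15459 (-10.54). These 4 have a group without any count, so that the size of the fitted change depends on the prior count and is no bound. It was positive for LOC_Os01g53220 (2.39), LOC_Os03g25530 (2.38), LOC_Os03g20680 (2.08), LOC_Os01g42190 (1.67) and LOC_Os01g46760 (1.10). The change of LOC_Os12g38900 lay at the threshold. It was not called by DESeq2 (-0.95), nor when any of SP2-2, SP2-3, FP2-1, FP2-3 or the 6 P4 libraries was left out, with values from -1.08 without FP4-3 to -0.47 without FP2-3. Rice_newGene_11330 and Rice_newGene_502 lost the call without FP2-1 (-1.79) and FP2-3 (-7.64), the libraries that held all of their FP2 counts.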

How the results depend on the processing

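The counts of members called were within 1.5 times of those reported under each alternative run, except at P4 without SP4-1 (51) and without SP4-3 (52). With single libraries left out they ranged from 32 to 46 at P2, 60 to 74 at P3, 51 to 81 at P4 and 51 to 63 for the change from P2 to P4. DESeq2 called 47, 70, 80 and 70, an adjusted P below 0.01 with edgeR left 31, 59, 70 and 44, and the replicate number as a block gave 35, 65, 76 and 56. Libraries with the same number did not deviate together, with correlations from -0.03 to 0.05, so that the numbers do not pair libraries. Membership moved more than the calls. With a pseudocount of 0.1 CPM 126 of the 200 genes were members, with 5 CPM 146, with FPKM 148, with group medians 148, with TMM library sizes 171, without a filter 199, with a minimum of 50 counts 191, and with single libraries left out 160 to 193. Of the values of named members under the alternatives, 2836 stayed on the same side of the threshold, 65 fell below it, 39 passed it and 0 were called with the opposite sign. A member that an alternative did not test is not in these numbers. Members that passed at P4 through SP4 alone were not tested there without an SP4 library, unless the filter used 18 libraries. Calls lost in that way are therefore left out of the 65. The keyword groups and promoter motifs planned at the outset were not run, since no annotation or sequence of these identifiers was at hand. Low counts at P2 and in FP4 limit the differences there, most of all for new models.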
